A study of Mus musculus with 23 samples.

Results

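The comparison described here is between 8 hearts with reduced G protein-coupled receptor kinases (GRKs) and 8 wild-type hearts, 16 of the 23 libraries of a mouse study of embryonic day 13.5. The wild-type embryos were GRK2 wt/wt, GRK5 wt/wt and GRK6 wt/wt without Cre. The embryos called haploinsufficient were GRK2 fl/wt, GRK5 fl/fl and GRK6 KO/KO and carried Nkx2.5Cre, so that besides a single floxed Grk2 allele they had both Grk5 alleles floxed and no intact Grk6 allele. Another group of 7 triple knockout hearts differed from them in having both Grk2 alleles floxed (GRK2 fl/fl). All 3 groups were labelled C57BL/6. The libraries were chosen by their column names in the deposited count table, and all genes were compared with the run of library IDs (1 to 12 or 19 to 30) as a term in the model. Each run held 4 wild-type and 4 haploinsufficient hearts.

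GRKs phosphorylate receptors that have been activated by their ligand. The phosphorylated receptor then binds an arrestin, is uncoupled from its G protein and is taken into the cell. GRK2 and GRK5 are the kinases best known from cardiac muscle, where beta-adrenergic receptors are among their substrates, and GRK2 is also known to act on the Hedgehog transducer Smoothened. The Cre used here is expressed from Nkx2.5, which marks cardiac progenitors and their descendants, so floxed alleles in cells that never expressed Nkx2.5 stay intact, whereas the Grk6 knockout allele does not depend on Cre. A whole heart holds cardiomyocytes, endocardium, cushion mesenchyme, epicardium and blood, and in such bulk RNA fewer cells of a type and less RNA per cell cannot be told apart. Whether the libraries of a group came from different embryos is not in the labels, and the tests below rest on the spread among libraries, which may be technical.

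Depth ran from 3838166 to 14050559 reads in genes per wild-type library and from 1757257 to 11025358 per haploinsufficient library, of which replicate 2 was the shallowest. Cre transcripts were at 0 to 0.859 CPM (counts scaled by the effective library size) in wild-type hearts and at 9.90 to 23.97 CPM in haploinsufficient hearts. The summed exon rows of Grk5 ranged from 20.3 to 27.4 CPM against 8.26 to 15.2 CPM, and those of Grk6 from 26.2 to 35.6 CPM against 11.04 to 23.3 CPM. For Adrbk1, the gene of GRK2, the ranges overlapped, with 48.9 to 60.5 CPM against 21.8 to 57.5 CPM. Those of Nkx2-5 overlapped too, with 82.9 to 114 CPM (median 99.2) against 47.6 to 94.3 CPM (median 70.5). Wild-type embryos carried no Cre and had the higher median Nkx2-5 level. Effects of Cre, of the altered Grk alleles and of the Nkx2-5 level therefore cannot be told apart in this comparison. Some libraries stood apart. A list of 32 lung and foregut markers summed to 158 to 186 CPM in 7 wild-type hearts, 321 CPM in wild-type replicate 4, and 497, 838 and 651 CPM in haploinsufficient replicates 1, 7 and 8, against 155 to 254 CPM in the other 5 haploinsufficient hearts. As a check of the tissue, 34 cardiac sarcomere genes summed to 78620.4 to 102557 CPM in wild-type and 56341.5 to 112230 CPM in haploinsufficient hearts. Haploinsufficient replicates 7, 4 and 8, at 56341.5, 61208.8 and 66366.7 CPM, were below all wild-type libraries. Haploinsufficient replicates 3, 5 and 6, at 111787 to 112230 CPM, were above all of them. In 3 wild-type and 5 haploinsufficient libraries, Xist and the summed Y-linked transcripts were both above 10 CPM.

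**Figure D1:**
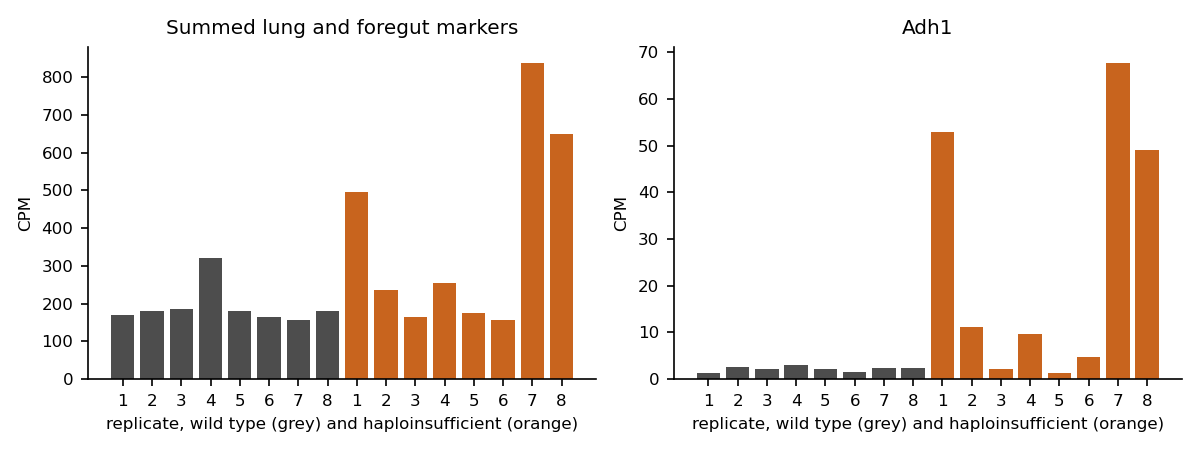
Bars give, for each of the 16 libraries, the summed CPM of 32 lung and foregut markers (left) and the CPM of Adh1 (right), with wild-type replicates in grey and haploinsufficient replicates in orange. Haploinsufficient replicates 1, 7 and 8 were the highest in both panels.

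Of 13941 genes tested, 308 (2.21%) differed between haploinsufficient and wild-type hearts at an adjusted p under 0.05. They were 119 genes that were higher (0.854%) and 189 that were lower (1.36%). Most differences were modest, with a median absolute log2 fold change of 0.62 among the called genes and 67 genes past a log2 fold change of 1. All 8 haploinsufficient libraries lay on the same side of all 8 wild-type libraries for 63 genes (0.452%), 24 of them higher and 39 lower in the haploinsufficient hearts. The median log2 fold change over all genes tested was 0.01. The number of called genes depended on single libraries: it was 166, 192, 202 and 168 without wild-type replicate 1, 6, 7 or 8, and 190, 593, 192 and 190 without haploinsufficient replicate 1, 3, 7 or 8. Without the 4 libraries of high lung and foregut sums, 124 genes were called, 93 of them among the 308. Here and below, that fit also left out triple knockout replicates 1 and 7, whose sums were 402 and 547 CPM. In the deposited FPKM, a unit scaled by transcript length and by depth, limma called 262 genes, and the split was 68 higher and 194 lower.

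Some of the most separate differences were in genes of muscle. Ryr3 encodes a calcium release channel of the sarcoplasmic reticulum. It was the single called gene of 31 tested for calcium cycling (3.23%, beside 2.21% of all genes tested). Its level was 57.2 to 114 CPM (median 92.6) in wild-type and 17.8 to 46.5 CPM (median 26.9) in haploinsufficient hearts, without overlap (log2 fold change -1.59 ± 0.17, adjusted p = 1.34e-06). The calcium cycling list as a whole had a median log2 fold change of -0.10, beside 0.01 for all genes tested.

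Troponin isoforms moved in opposite directions. Tnnt3, the fast skeletal troponin T, ranged from 3.49 to 9.77 CPM (median 6.53) in wild-type and from 23.04 to 59.6 CPM (median 29.8) in haploinsufficient hearts (log2 fold change 2.32 ± 0.29, adjusted p = 4.27e-05). Tnni2, the fast skeletal troponin I, was at 22.7 to 33.2 CPM (median 26.1) and 37.9 to 65.1 CPM (median 49.5) (log2 fold change 0.94 ± 0.16, adjusted p = 0.00157). Tnnt1, the slow skeletal troponin T, fell from 231 to 339 CPM (median 304) to 109.7 to 211 CPM (median 145) (log2 fold change -0.96 ± 0.15, adjusted p = 4.23e-04). For all 3 genes every haploinsufficient library was outside the wild-type range. Myh2, a fast skeletal myosin heavy chain, was barely detected in wild-type hearts, at 0 to 0.543 CPM, and reached 0.445 to 5.51 CPM in haploinsufficient hearts, with 7 of 8 libraries above all wild-type libraries (adjusted p = 4.52e-04). These 3 higher genes and Tnnt1 were the called members among 20 tested genes of a skeletal muscle list (20%, beside 2.21% of all genes tested). The list median was -0.11. All 3 higher genes remained higher without any single library and without the 4 libraries of high lung and foregut sums. Of 33 cardiac sarcomere and Z-disc genes none was called by edgeR or DESeq2, and none of 32 by limma on FPKM + 0.1. In edgeR with the offset for exon length described below 1 was called lower. Without the offset 3 were at an unadjusted p under 0.05, and the median log2 fold change of the 33 was -0.10. That median was 0.06 without the 4 libraries of high lung and foregut sums, and 0.11 with the sum as a term in the model. The smallest p among the 33 belonged to Xirp1 (-0.42 ± 0.17, adjusted p = 0.217) and Actn2 (-0.39 ± 0.17, adjusted p = 0.237). With the sum as a term their log2 fold changes were -0.14 and -0.11.

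**Figure D2:**
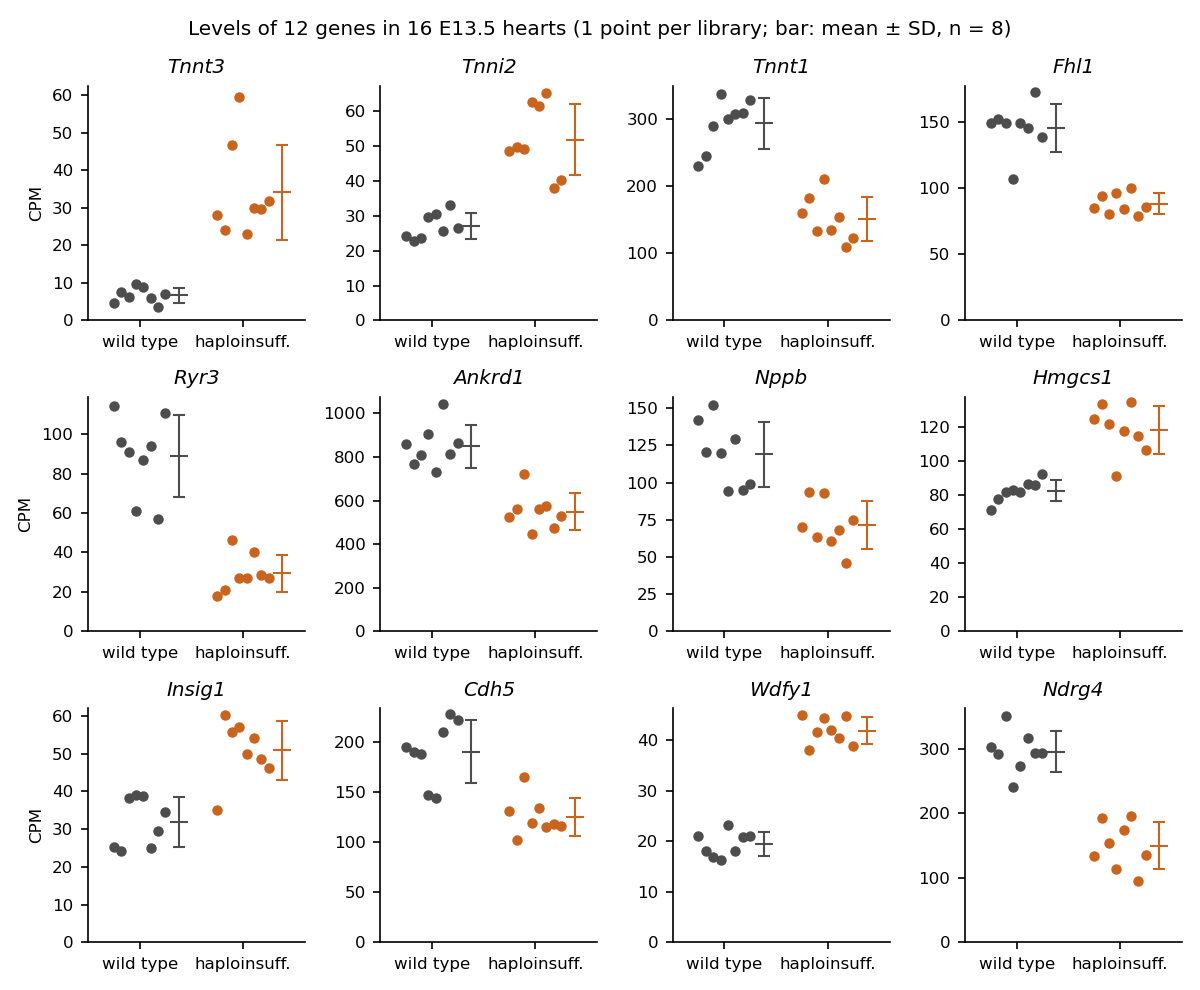
Each panel plots the CPM of a gene in the 8 wild-type (grey) and 8 haploinsufficient (orange) libraries, with a bar for the mean ± SD (n = 8). The libraries of the groups do not overlap for Tnnt3, Tnni2, Tnnt1, Fhl1, Ryr3, Ankrd1, Nppb, Wdfy1 and Ndrg4, and they overlap by a single haploinsufficient library for Hmgcs1, Insig1 and Cdh5.

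Called genes of the response to stretch were lower. Ankrd1, a titin-associated ankyrin repeat protein that responds to load, ranged from 730.4 to 1046 CPM (median 835) in wild-type hearts and from 445 to 724 CPM (median 546) in haploinsufficient hearts. Nppb, which encodes B-type natriuretic peptide, ranged from 94.1 to 152 CPM (median 120.4) and from 45.8 to 93.7 CPM (median 69.3). Neither gene had overlapping groups, and the log2 fold changes were -0.62 ± 0.12 (adjusted p = 0.00320) and -0.75 ± 0.15 (adjusted p = 0.00545). Ctgf, a matricellular protein and target of the Hippo pathway, had a smaller margin (log2 fold change -0.53 ± 0.13, adjusted p = 0.0321) and lost its call when any of 7 libraries was left out singly (adjusted p up to 0.0901, without wild-type replicate 6). These 3 were the called members, all lower, of 23 tested immediate early and stretch genes (13.04%, beside 2.21% of all genes tested). The list median was -0.13. Without the 4 libraries of high lung and foregut sums none of the 23 was called, with log2 fold changes of -0.52 for Ankrd1 and -0.68 for Nppb (adjusted p = 0.065 and 0.074 by edgeR). Fhl1, a LIM-domain protein of the sarcomere that takes part in mechanical signalling, was at 107 to 172 CPM (median 149) against 78.6 to 100.03 CPM (median 85.02) (log2 fold change -0.73 ± 0.09, adjusted p = 8.82e-06) and kept its call in that subset.

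Called ion channel genes encoded potassium channels and were lower. Kcna4 and Kcnd2 encode pore subunits of the transient outward current, and Kcne1 the small subunit of the slow delayed rectifier. Kcnd2 was at 8.19 to 14.1 CPM (median 10.5) in wild-type hearts and at 1.76 to 9.43 CPM (median 4.91) in haploinsufficient hearts. Kcna4 was at 17.5 to 27.5 CPM (median 24.7) and 8.06 to 19.3 CPM (median 12.8). Most haploinsufficient libraries lay under the wild-type range, 7 of 8 for Kcnd2 and 6 of 8 for Kcna4. The log2 fold changes were -1.10 ± 0.23 (adjusted p = 0.00759), -0.88 ± 0.18 (adjusted p = 0.00527) and, for Kcne1, -0.61 ± 0.16 (adjusted p = 0.0334), and Kcne1 lost its call when any of 10 libraries was left out singly (adjusted p up to 0.0838, without haploinsufficient replicate 7). The 33 ion channel genes tested had 3 called members (9.09%, beside 2.21% of all genes tested), all lower, and a median of -0.23. Without the 4 libraries of high lung and foregut sums the median was -0.13, and Kcna4 and Kcne1 were not called (adjusted p = 0.0732 and 0.116). With the sum as a term the median was -0.09. Bves and Popdc3, Popeye proteins that bind cAMP in the muscle membrane, were the called members of 20 intercalated disc genes (10%, median -0.19). Bves was at 51.2 to 92.7 CPM (median 62.2) and 22.3 to 55.8 CPM (median 36.3) (log2 fold change -0.83 ± 0.17, adjusted p = 0.00658). Popdc3 differed by -0.82 ± 0.20 on the log2 scale (adjusted p = 0.0289) and lost its call when any of 5 libraries was left out singly (adjusted p up to 0.0766, without haploinsufficient replicate 7).

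Of 37 cardiac transcription factors tested, 3 were called (8.11%, beside 2.21% of all genes tested), all lower, with a list median of -0.06. None was called without the 4 libraries of high lung and foregut sums or with that sum as a term in the model. Irx6, an Iroquois homeobox gene, was at 5.71 to 11.9 CPM (median 7.80) in wild-type and 0.744 to 5.27 CPM (median 3.81) in haploinsufficient hearts, without overlap (log2 fold change -1.28 ± 0.30, adjusted p = 0.0175). Without wild-type replicate 1 its adjusted p was 0.0523, and without the 4 libraries it was 0.201. Zfpm2, the GATA cofactor FOG2, and Myocd, the myocardin coactivator of serum response factor, differed by -0.54 ± 0.14 and -0.47 ± 0.12 (adjusted p = 0.0331 and 0.0347). Their adjusted p without the 4 libraries was 0.230 and 0.261. Zfpm2 lost its call when any of 10 libraries was left out singly (adjusted p up to 0.0901, without wild-type replicate 8), and Myocd lost its call when any of 9 libraries was left out singly (adjusted p up to 0.0899, without haploinsufficient replicate 7). In fatty acid oxidation, 28 genes were tested with a median of -0.13, and Esrrb and Cpt1a were called lower (7.14%, beside 2.21% of all genes tested). Esrrb, an orphan nuclear receptor of oxidative metabolism, was at 9.50 to 18.6 CPM (median 14.2) and 3.78 to 10.5 CPM (median 5.87) (log2 fold change -1.16 ± 0.22, adjusted p = 0.00246). Cpt1a, which loads long-chain fatty acids for entry into mitochondria, was at 68.8 to 109.9 CPM (median 76.3) and 48.3 to 68.5 CPM (median 53.6), without overlap (-0.49 ± 0.10, adjusted p = 0.00666). Without the 4 libraries of high lung and foregut sums neither was called (adjusted p = 0.0617 and 0.0802), and the list median was 0.00394. No gene was called among 49 nuclear genes of the respiratory chain or 15 of the mitochondrial genome by edgeR or DESeq2, with medians of 0.07 and -0.08 and 1 and 2 genes at an unadjusted p under 0.05.

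Genes of cholesterol metabolism formed the list with the most called members. Of 30 tested, 10 were higher (33.3%, beside 0.854% of all genes tested) and none was lower. Among them were Hmgcs1, Insig1, Cyp51, Fdps, Lss, Fdft1, Stard4, Acat2 and Idi1. The median log2 fold change was 0.29, and 26 of the 30 had a positive sign, beside 52.0% of all genes tested. In cholesterol synthesis, acetyl units are joined to mevalonate, isoprenoids, squalene and lanosterol, and the genes are switched on together by SREBP2 when the sterol sensors of the endoplasmic reticulum find little cholesterol.

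Hmgcs1, which makes the HMG-CoA from which mevalonate is formed, ranged from 71.4 to 92.5 CPM (median 82.7) in wild-type hearts and from 91.4 to 135 CPM (median 119.8) in haploinsufficient hearts. Only the lowest haploinsufficient library was inside the wild-type range (log2 fold change 0.51 ± 0.09, adjusted p = 0.00111). Further along the mevalonate and isoprenoid steps, Idi1 rose from 20.5 ± 3.88 to 28.1 ± 4.30 CPM (SD, n = 8, log2 fold change 0.45 ± 0.13), Fdps from 64.6 ± 11.004 to 89.1 ± 15.7 CPM (0.46 ± 0.11) and Fdft1, the squalene synthase, from 49.2 ± 4.88 to 63.2 ± 6.38 CPM (0.36 ± 0.09), with adjusted p values of 0.0493, 0.0159 and 0.0342. Acat2, which joins the initial acetyl units, differed by 0.67 ± 0.18 (adjusted p = 0.0425). On the lanosterol side, Lss, the cyclase, and Cyp51, the lanosterol demethylase, differed by 0.51 ± 0.12 and 0.52 ± 0.11 (adjusted p = 0.0246 and 0.00733).

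Insig1, a sensor that holds the SREBP complex in the endoplasmic reticulum, was at 24.2 to 39.1 CPM (median 32.04) and 35.2 to 60.3 CPM (median 52.1) (log2 fold change 0.67 ± 0.12, adjusted p = 0.00177). Stard4, a sterol carrier, differed by 0.49 ± 0.13 (adjusted p = 0.0425). Srebf2, the gene of SREBP2, and the sterol exporters Abca1 and Abcg1 did not pass the test, with log2 fold changes of 0.16 ± 0.09, -0.08 ± 0.13 and -0.23 ± 0.14 (adjusted p = 0.393, 0.805 and 0.423). Scd1, a fatty acid desaturase and also a target of SREBP proteins, rose from 2.21 to 6.79 CPM (median 4.07) to 2.07 to 17.6 CPM (median 12.04) (1.38 ± 0.29, adjusted p = 0.00759). In the deposited FPKM its log2 fold change was 0.66 (adjusted p = 0.0986 by limma, pseudocount 0.1), and without the 4 libraries of high lung and foregut sums it was 1.25 (adjusted p = 0.131). In IDs 1 to 12 and 19 to 30 it was 2.06 and 0.91, the latter without a call. The number of called cholesterol genes fell to between 5 (without wild-type replicate 1) and 9 when a single library was left out, to 5 without the 4 libraries of high lung and foregut sums, where the median was 0.32 and 4 of the 5 were among the 10, and to 6 in limma on FPKM + 0.1. It was 3 with the replicate number as a block, 3 in limma without a filter, 4 in IDs 19 to 30 and 0 in IDs 1 to 12, where the medians were between 0.23 and 0.29. Idi1, Fdft1, Lss, Stard4 and Acat2 each lost their call when any of 5 to 12 libraries was left out singly (adjusted p up to 0.127, 0.0853, 0.0644, 0.0847 and 0.126).

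Promoters of 6 of the 10 called genes were in the RefSeq table of 300-base windows (250 before to 50 after the start, GRCm38.p6), namely those of Acat2, Cyp51, Hmgcs1, Idi1, Insig1 and Lss. Hmgcs1, Insig1, Cyp51 and Idi1 are shown because they stand for the entry, sensing, lanosterol and isoprenoid steps described above. Capitals mark the letters TCACNCCAC, a core of the sterol element bound by SREBP, and CCAAT, the box bound by NF-Y, on either strand, so that ATTGG is CCAAT read on the other strand. The windows are chr13:119690101-119690400 (plus strand), chr5:28071162-28071461 (plus), chr5:4104648-4104947 (minus) and chr13:8885356-8885655 (plus).
Hmgcs1: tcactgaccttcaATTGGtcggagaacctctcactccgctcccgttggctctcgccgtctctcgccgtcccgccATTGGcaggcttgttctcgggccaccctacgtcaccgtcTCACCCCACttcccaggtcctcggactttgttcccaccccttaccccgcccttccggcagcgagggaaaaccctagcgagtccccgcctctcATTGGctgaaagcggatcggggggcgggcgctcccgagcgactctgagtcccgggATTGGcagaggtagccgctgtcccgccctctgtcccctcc
Insig1: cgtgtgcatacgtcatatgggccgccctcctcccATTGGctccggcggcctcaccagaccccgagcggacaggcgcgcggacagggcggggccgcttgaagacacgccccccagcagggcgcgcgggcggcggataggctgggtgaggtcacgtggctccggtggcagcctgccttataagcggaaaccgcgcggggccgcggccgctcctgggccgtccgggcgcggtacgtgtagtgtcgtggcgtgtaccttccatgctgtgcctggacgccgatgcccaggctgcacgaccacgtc
Cyp51: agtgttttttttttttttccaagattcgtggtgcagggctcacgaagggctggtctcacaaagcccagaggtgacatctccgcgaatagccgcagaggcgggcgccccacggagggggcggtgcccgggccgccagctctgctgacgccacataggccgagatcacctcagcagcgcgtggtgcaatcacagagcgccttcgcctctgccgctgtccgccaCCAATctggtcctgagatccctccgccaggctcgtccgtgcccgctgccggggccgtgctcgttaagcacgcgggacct
Idi1: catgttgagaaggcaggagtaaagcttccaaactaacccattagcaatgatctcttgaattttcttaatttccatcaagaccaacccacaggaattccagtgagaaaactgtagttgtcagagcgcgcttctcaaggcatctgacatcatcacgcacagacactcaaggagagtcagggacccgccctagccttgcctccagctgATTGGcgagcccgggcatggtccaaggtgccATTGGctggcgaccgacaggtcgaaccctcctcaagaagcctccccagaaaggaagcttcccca
The sterol core was in the Hmgcs1 window alone among the 6, and in 1.24% of 32851 mouse promoter windows of this length. CCAAT was in 5 of the 6 windows, with 4 matches in Hmgcs1, and in 37.4% of all windows. It was in 18 of the 21 windows matched among the 30 tested cholesterol genes. A match describes letters in the window and not a bound site.

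Few replication genes passed the test, although most had the same sign. Of 43 S phase genes, 41 had a positive sign, beside 52.0% of all genes tested, with a median of 0.22. Uhrf1, Mcm4 and Chaf1a were called higher (6.98%, beside 2.21% of all genes tested). Each lost its call when any of 10 or 11 libraries was left out singly (adjusted p up to 0.0976, 0.123 and 0.123). Uhrf1, which keeps DNA methylation at the replication fork, was at 159 to 200.1 CPM (median 174) and 157 to 298 CPM (median 215) (0.33 ± 0.09, adjusted p = 0.0385), with overlapping groups. Mcm4, of the replicative helicase, differed by 0.40 ± 0.11, and Chaf1a, of the chromatin assembly factor, by 0.41 ± 0.11 (adjusted p = 0.0445 and 0.0465). No S phase gene was called by edgeR without the 4 libraries of high lung and foregut sums, where the median was 0.15, or by limma on FPKM + 0.1. The median was 0.08 in IDs 1 to 12 and 0.34 in IDs 19 to 30, a difference that was not tested. Among 39 mitosis genes, with a median of 0.11, only Mad2l1 was called, which is 2.56%. It differed by 0.62 ± 0.17 (adjusted p = 0.0425) and lost its call when any of 10 libraries was left out singly (adjusted p up to 0.101, without wild-type replicate 1).

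Transcript length moved with the direction of change. With the genes split into 5 equal groups from the shortest to the longest exon length, the median log2 fold changes were 0.11, 0.04, 0.02, -0.01 and -0.08, and the share of genes called higher fell from 1.40% to 0.144% while the share called lower rose from 0.791% to 2.08%. With an offset that removed this trend, 310 genes were called, 259 of them among the 308. All 48 ribosomal protein genes, which are short, had a positive sign, with a median of 0.21 that became 0.09 with the offset. None of them was called by edgeR or DESeq2, and 13 were at an unadjusted p under 0.05. Of the 10 called cholesterol genes, 9 were also called with the offset, where the list median was 0.28.

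**Figure D3:**
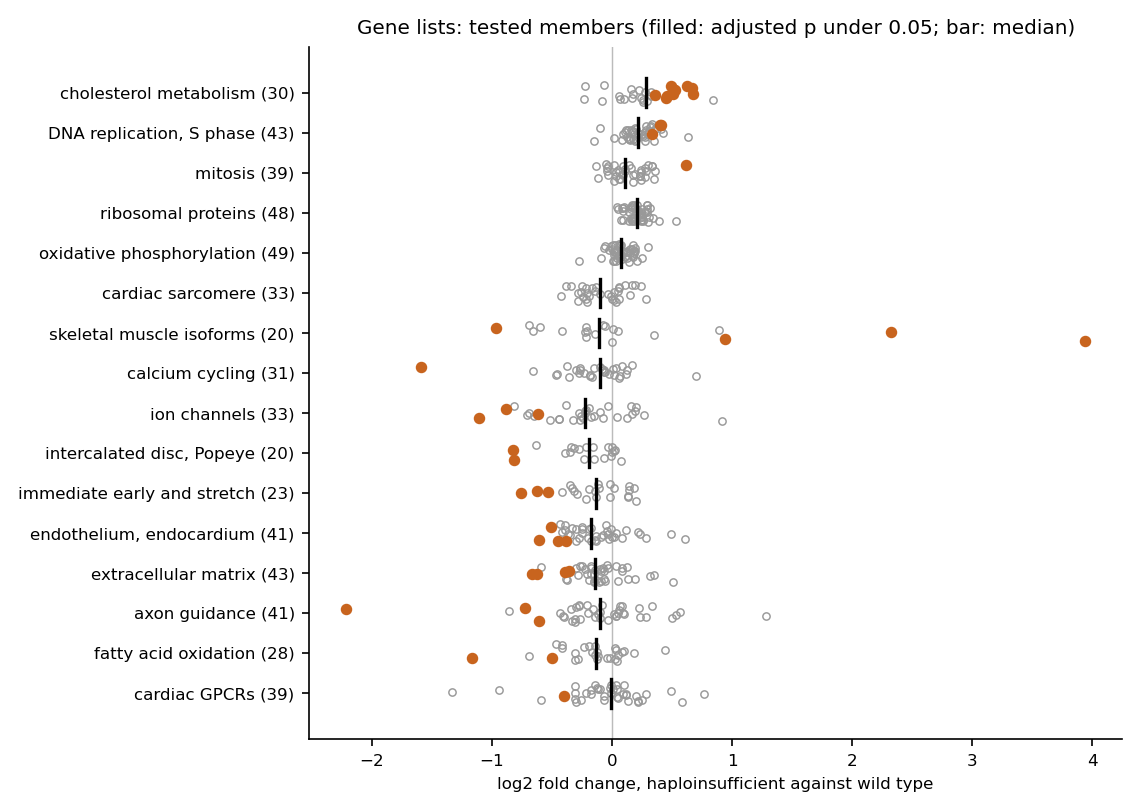
Points give the log2 fold change of each tested member of 16 gene lists (number tested in brackets), filled where the adjusted p was under 0.05, with a bar at the list's median. Cholesterol genes lie to the right with 10 called members, and ion channel, stretch, endothelial and matrix genes have called members on the left.

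Endothelial and endocardial genes were lower where they were called. Of 41 tested, 4 were lower (9.76%, beside 1.36% of all genes tested) and none higher, with a median of -0.17. The median was 0.00381 in IDs 1 to 12, with 21 of the 41 positive, and -0.25 in IDs 19 to 30, a difference that was not tested. Cdh5, VE-cadherin, was at 144 to 228 CPM (median 193) in wild-type and 102 to 166 CPM (median 119) in haploinsufficient hearts (-0.60 ± 0.11, adjusted p = 0.00246), and 7 of 8 haploinsufficient libraries lay under the wild-type range. Npr3, the natriuretic peptide clearance receptor of the endocardium, was at 154 to 197 CPM (median 181) and 92.5 to 154 CPM (median 123), without overlap at the unrounded values (-0.51 ± 0.10, adjusted p = 0.00397). Tek, the angiopoietin receptor TIE2, differed by -0.45 ± 0.09 (adjusted p = 0.00459), and Ramp2, which pairs with Calcrl to form an adrenomedullin receptor, by -0.38 ± 0.10 (adjusted p = 0.0344). Ramp2 lost its call when any of 10 libraries was left out singly (adjusted p up to 0.0834, without wild-type replicate 8). Without the 4 libraries of high lung and foregut sums, Cdh5 was the called member that was left. Vegfc, a lymphatic growth factor, was lower (log2 fold change -0.67 ± 0.14, adjusted p = 0.00867) and was not called without those 4 libraries. No Notch gene of 20 tested was called by edgeR or DESeq2, with 5 at an unadjusted p under 0.05.

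Called matrix and guidance genes were lower. Fbln5, of elastic fibres, was at 90.6 to 148 CPM (median 135) and 63.7 to 96.3 CPM (median 84.3) (-0.66 ± 0.11, adjusted p = 5.82e-04). Fibronectin (Fn1), laminin alpha 2 (Lama2) and biglycan (Bgn) differed by -0.62 ± 0.15, -0.39 ± 0.10 and -0.36 ± 0.09 (adjusted p = 0.0241, 0.0297 and 0.0366), and each lost its call when any of 7 to 10 libraries was left out singly (adjusted p up to 0.0651, 0.0856 and 0.0924, each without wild-type replicate 8). These were the called members of 43 matrix genes (9.30%, beside 2.21% of all genes tested) with a median of -0.14. Without wild-type replicate 6, and without the 4 libraries of high lung and foregut sums, 1 of the 43 was called lower. Matrix genes are long, with a median exon length of 5893 bases, and with the length offset the median was -0.03, 17 rather than 10 of the 43 had a positive sign, and Lama2 was not called (adjusted p = 0.125). Acan, the cartilage proteoglycan, was at 7.95 to 19.1 CPM (median 14.1) and 1.62 to 10.3 CPM (median 4.39) (-1.58 ± 0.23, adjusted p = 1.17e-04). Slit2, a secreted guidance cue, was at 199.5 to 303 CPM (median 231) and 96.8 to 207 CPM (median 124) (-0.72 ± 0.14, adjusted p = 0.00320). Slit2 was not called without the 4 libraries of high lung and foregut sums (adjusted p = 0.0643 by edgeR). Unc5a, a netrin receptor, was at 3.26 to 8.15 CPM (median 6.27) and 0 to 2.27 CPM (median 1.36), without overlap (-2.21 ± 0.39, adjusted p = 0.00143). Plxna4 was the third called guidance gene of 41 tested (7.32%, beside 2.21% of all genes tested). It differed by -0.61 ± 0.15 (adjusted p = 0.0233) and lost its call when any of 7 libraries was left out singly (adjusted p up to 0.0595, without wild-type replicate 1). Of 46 atrioventricular canal and cushion genes, 4.35% were called, beside 2.21% of all genes tested. Bmp5 was higher (0.70 ± 0.17, adjusted p = 0.0241) and Bmp10, a ligand of trabecular myocardium, was lower (-0.71 ± 0.18, adjusted p = 0.0344). Bmp5 lost its call when any of 3 libraries was left out singly (adjusted p up to 0.0604, without wild-type replicate 1), and Bmp10 lost its call when any of 10 libraries was left out singly (adjusted p up to 0.0765, without wild-type replicate 1).

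Receptor signalling was described by several lists. Among the receptor kinases and arrestins that were not targeted, 5 of 7 were tested and none was called by edgeR or DESeq2, with 2 at an unadjusted p under 0.05. Adrbk2, the gene of GRK3 and closest relative of GRK2, had 66.8 ± 6.24 CPM in wild-type and 66.5 ± 11.9 CPM in haploinsufficient hearts (log2 fold change -0.02 ± 0.10, adjusted p = 0.953). The beta-arrestin genes Arrb1 and Arrb2 differed by 0.06 ± 0.08 and -0.07 ± 0.12 (adjusted p = 0.762 and 0.811). Grk4 had log2 fold change -0.71 ± 0.32 (adjusted p = 0.268), and its groups overlapped from 21.2 to 66.7 CPM.

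A single gene was called in each of the G protein, cAMP, receptor, Hedgehog and Wnt lists, which is 2.22% to 4.35% of their tested members beside 2.21% of all genes tested. Gng2, a G protein gamma subunit, was higher by 0.40 ± 0.10 (adjusted p = 0.0273) among 31 G protein and RGS genes. Pde1c, a phosphodiesterase activated by calmodulin, was lower (-0.66 ± 0.17, adjusted p = 0.0315) among 33 cAMP genes, and Calcrl, the receptor partner of Ramp2, was lower (-0.40 ± 0.10, adjusted p = 0.0345) among 39 receptors. The beta-adrenergic receptor genes Adrb1 and Adrb3 did not pass the test, with -0.01 ± 0.17 and -1.33 ± 0.41 (adjusted p = 0.989 and 0.0845). Cdon, a Hedgehog co-receptor, was at 110.3 to 136 CPM (median 120.4) and 76.1 to 125 CPM (median 91.2) (-0.38 ± 0.09, adjusted p = 0.0246). It was the only called gene of 23 tested for Hedgehog, a list with a median of 0.05 and 14 positive signs. Without the 4 libraries of high lung and foregut sums the list median was -0.20, with 5 of 21 genes positive. With that sum as a term in the model the median was -0.20 too, with 6 of 23 positive. Smo itself had 119 ± 10.1 and 123 ± 26.7 CPM (0.05 ± 0.11, adjusted p = 0.857). Fzd8, a Wnt receptor, was lower (-0.69 ± 0.15, adjusted p = 0.0105) among 45 Wnt genes. Gng2, Pde1c, Calcrl and Cdon each lost their call when any of 5 to 9 libraries was left out singly (adjusted p up to 0.0699, 0.0854, 0.0899 and 0.0670). None of these 4 was called without the 4 libraries of high lung and foregut sums (adjusted p = 0.0750, 0.262, 0.278 and 0.183), whereas Fzd8 was.

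Lung and foregut genes were high in some haploinsufficient libraries and not in others. Of the 32 markers, 20 were tested and none was called in the fit to all libraries, with a median log2 fold change of 1.78. DESeq2 called 5 higher, as did edgeR without wild-type replicate 4, while edgeR without the robust option called 3 and without the ID run term 1. The list has 19 positive signs among the 20 and 14 at an unadjusted p under 0.05. Foxf1, a transcription factor of foregut mesenchyme, was at 0.221 to 7.97 CPM (median 0.637) in wild-type hearts, where the highest library was replicate 4, and at 0 to 67.2 CPM (median 6.88) in haploinsufficient hearts (4.12 ± 1.24, adjusted p = 0.0952). Without the 4 libraries of high sums, the median of the 15 genes still tested was 0.23 and none was called. Adh1, an alcohol dehydrogenase of retinoid metabolism, was called (3.51 ± 0.87, adjusted p = 0.0370), with 1.33 to 3.08 CPM (median 2.35) against 1.34 to 67.7 CPM (median 10.4), and it lost its call when any of 10 libraries was left out singly (adjusted p up to 0.101, without haploinsufficient replicate 1). Its log2 fold change was 1.04 (adjusted p = 0.42) without those 4 libraries. Markers of liver summed to 70.3 to 125 CPM in wild-type and 92.2 to 129.9 CPM in haploinsufficient hearts. Itih3, a liver list member, rose from 1.99 to 3.99 CPM (median 2.63) to 2.97 to 14.1 CPM (median 6.91) (1.37 ± 0.27, adjusted p = 0.00381) and kept its call without the 4 libraries.

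Further genes among those of smallest p had various roles. Wdfy1, an endosomal adaptor at chr1:79702262-79761769 (GRCm38), ranged from 16.2 to 23.2 CPM (median 19.5) in wild-type and from 38.1 to 44.9 CPM (median 41.8) in haploinsufficient hearts (1.11 ± 0.09, adjusted p = 2.22e-09). In the deposited FPKM its log2 fold change was 0.29 (adjusted p = 0.252 by limma, pseudocount 0.1). Glo1, the glyoxalase that clears methylglyoxal, was at 78.9 to 100.1 CPM (median 82.8) and 118 to 163 CPM (median 152) (0.76 ± 0.09, adjusted p = 6.19e-06). Dynlt1b, a dynein light chain with near-identical neighbouring copies, was at 2.52 to 5.70 CPM (median 3.96) and 10.9 to 29.3 CPM (median 14.3) (2.03 ± 0.21, adjusted p = 1.92e-07), and Tmem181a, from the same stretch of chromosome 17, differed by 0.68 ± 0.11 (adjusted p = 4.23e-04). Tuba1c, an alpha tubulin that also has close copies, was at 15.99 to 35.6 CPM (median 32.8) and 39.4 to 131 CPM (median 84.9) (1.63 ± 0.21, adjusted p = 5.68e-05). In the deposited FPKM the log2 fold changes were 1.01 for Dynlt1b and 0.31 for Tuba1c. Reads of such copies can be shared out differently, so these values are uncertain. The cause of these disagreements between the deposited tables, that of Wdfy1 included, was not tested. Ide, the insulin-degrading enzyme, fell from 93.8 to 132 CPM (median 113) to 43.9 to 81.9 CPM (median 64.7) (-0.82 ± 0.11, adjusted p = 4.27e-05). Gramd1b, a sterol transporter of membrane contact sites, was at 20.3 to 38.4 CPM (median 30.7) and 7.44 to 20.5 CPM (median 9.59) (-1.44 ± 0.19, adjusted p = 2.22e-05). Nnt, the proton-pumping transhydrogenase of mitochondria, was at 177 to 224 CPM (median 199) and 191 to 332 CPM (median 296) (0.47 ± 0.11, adjusted p = 0.0222) and was chosen after its values were seen.

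The largest fold changes were in small RNAs related to the RNA of ribonuclease P, which trims transfer RNA precursors. Rpph1, that RNA itself, was at 13568 to 20147 CPM (median 16448) in wild-type and 6157 to 15744 CPM (median 9191) in haploinsufficient hearts (-0.75 ± 0.15, adjusted p = 0.00557). The related genes Rprl2 and Rprl3 were at 0.0895 to 2.57 CPM (median 0.852) and 6.25 to 136 CPM (median 16.2) in wild-type hearts. In haploinsufficient hearts they were at 32.05 to 178 CPM (median 62.4) and 990.3 to 4944 CPM (median 2283), with no overlap (log2 fold change 6.43 ± 0.38 and 6.52 ± 0.61, adjusted p = 1.55e-09 and 2.33e-06). Rprl1 was at 0 to 0.859 CPM (median 0.284) and 4.90 to 30.5 CPM (median 11.1). Annotated transcripts of Rprl2 and Rprl3 were 92.1% identical and shared 7 of 241 windows of 50 bases, whereas Rprl1, Rprl2 and Rprl3 shared no such window with Rpph1, to which they were 71.2% to 75.8% identical. Reads with mismatches could still be placed on either, so that these levels are uncertain.

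The called genes were not evenly spread over chromosomes. On chromosome 8, 36 of 748 tested genes were called (4.81%), the highest share of any chromosome. Between 60 and 100 Mb of it (GRCm38), a stretch chosen after the values were seen, 26 of 290 were called (8.97%, 11 higher and 15 lower), against 282 of 13651 elsewhere (2.07%). Chromosome 8 was not alone in this. Between 0 and 10 Mb of chromosome 17, 7 of 33 tested genes were called (21.2%), beside 10 of 53 between 90 and 100 Mb of chromosome 8 (18.9%). Ciapin1, an iron-sulfur protein at chr8:94819818-94838340, was at 52.8 to 64.8 CPM (median 60.9) and 82.3 to 129 CPM (median 101) (0.73 ± 0.09, adjusted p = 7.01e-06). Ndrg4, a myocardial protein needed for cardiomyocyte growth in fish, at chr8:95703037-95715119, was at 241 to 350.1 CPM (median 294) and 94.9 to 195 CPM (median 145) (-0.99 ± 0.13, adjusted p = 1.97e-05). Tox3, an HMG-box protein at chr8:90247112-90348252, was at 23.4 to 38.3 CPM (median 32.03) and 10.98 to 23.4 CPM (median 15.3) (-0.94 ± 0.15, adjusted p = 3.79e-04), and Irx6 lies in the same stretch. All 3 genes and Irx6 had groups without overlap. Brd7, a bromodomain subunit of a chromatin remodeller, was higher (0.41 ± 0.08, adjusted p = 0.00388) and Nr3c2, the mineralocorticoid receptor, lower (-1.31 ± 0.26, adjusted p = 0.00399). Neither Brd7 nor Nr3c2 was called without the libraries of high lung and foregut sums (adjusted p = 0.0701 and 0.0835 by edgeR).

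Within 10 Mb of the targeted loci, the shares were nearer that of all genes: 3 of 215 around Adrbk1 (1.40%), 2 of 45 around Grk5 (4.44%), 3 of 128 around Grk6 (2.34%) and 8 of 333 around Nkx2-5 (2.40%). None of these loci is on chromosome 8. Leaving the 290 genes of chromosome 8 out of the fit gave 265 called genes.

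**Figure D4:**
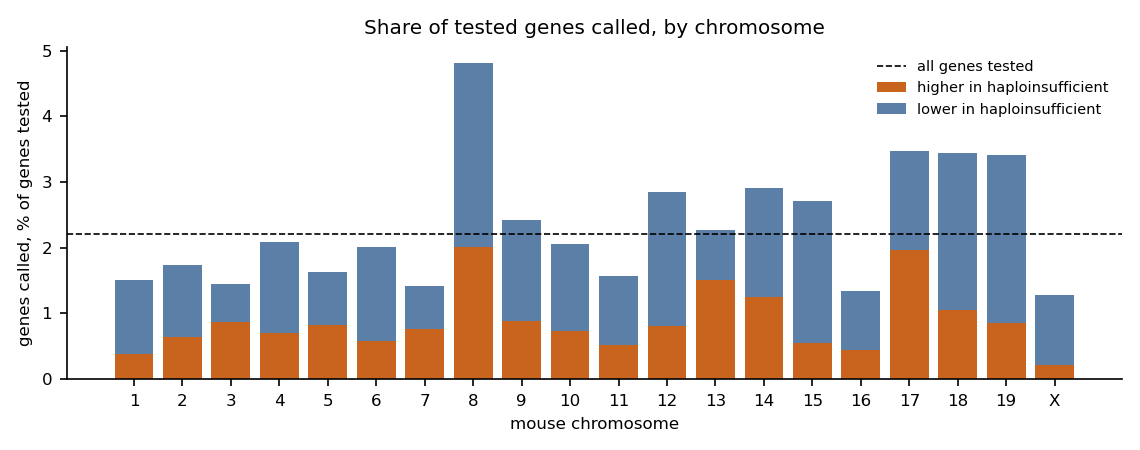
Stacked bars give the percentage of tested genes called on each chromosome, higher in orange and lower in blue, with the share over all genes tested as a dashed line at 2.21%. Chromosome 8 has the tallest bar, at 4.81%.

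Within the ID runs the same contrast had 4 hearts against 4. The fit to IDs 1 to 12 called 18 genes and the fit to IDs 19 to 30 called 187. A test of the difference between the runs called no gene by edgeR, with 973 of 13941 genes at an unadjusted p under 0.05, and no gene when only the 16 libraries were fitted. Cadm1, a cell adhesion molecule, had log2 fold changes of 0.61 and 0.95 in the earlier and later IDs, and Bves of -0.40 and -1.24. Ryr3 (-1.66 and -1.53), Glo1 (0.79 and 0.73), Dynlt1b (2.21 and 1.82) and Ndrg4 (-0.996 and -0.979) were called in both runs.

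The triple knockout hearts show the levels of these genes when both Grk2 alleles were floxed, and their comparison with wild type uses the same 8 control hearts. Ryr3 was at 34.4 to 59.2 CPM (median 47.6) in triple knockout hearts and Tnnt3 at 26.3 to 91.2 CPM (median 61.2). Against haploinsufficient hearts the log2 differences of these genes were 0.70 ± 0.17 and 0.80 ± 0.26 (adjusted p = 0.0703 and 0.160), neither past the threshold. Hmgcs1 was at 109 to 151 CPM (median 135) and Insig1 at 37.7 to 55.8 CPM (median 51.5), with differences of 0.17 ± 0.09 and -0.01 ± 0.12 from haploinsufficient hearts (adjusted p = 0.382 and 0.989). Cdh5 was at 140.1 to 228 CPM (median 170.4), a difference of 0.49 ± 0.12 (adjusted p = 0.0539).

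Against wild type, 167 genes were called in triple knockout hearts (1.2%). Between triple knockout and haploinsufficient hearts, 47 genes were called (0.337%), 38 lower and 9 higher in the triple knockout, and 6 of them were among the 308. The 308 rest on the same 8 haploinsufficient libraries. Cdon was at 112 to 149.7 CPM (median 137) in triple knockout hearts, higher than in haploinsufficient hearts by 0.53 ± 0.10 (adjusted p = 0.0104), and Lama2 was higher by 0.45 ± 0.10 (adjusted p = 0.0387). Rpph1 was lower again (-0.83 ± 0.16, adjusted p = 0.0156). The 38 lower genes included 17 histone genes, such as Hist1h2af (-1.24 ± 0.19, adjusted p = 0.00290), a grouping made after the values were seen. In haploinsufficient against wild-type hearts, 54 of 55 tested histone genes had a positive sign, beside 52.0% of all genes tested. Their median was 0.39, and 4 of the 55 were called higher, beside 0.854% of all genes tested. With the length offset the median of the 55 was 0.22. A fit to the 15 haploinsufficient and triple knockout libraries alone called 1 gene, and DESeq2 called 270. That 1 gene was not among the 308, so Cdon, Lama2 and Rpph1 were not called in the fit to the 15 libraries.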

How the data were processed

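RNA of flash-frozen hearts was depleted of ribosomal RNA and made into single-end libraries that do not keep the strand, per the labels' protocols, so reads of overlapping antisense genes cannot be told apart. The deposited counts are reads per gene made by the authors with TopHat2 2.0.10, Bowtie2 and HTSeq on mm10, and the deposited FPKM were made by the authors with Cufflinks 2.1, both per the submitters' processing notes. Of 23512 features in the count table, 58 exon rows of Adrbk1, Grk5, Grk6 and Nkx2-5 and the Cre row were used only to check the labels, and 23453 genes stayed. All 23 libraries were fitted together in edgeR 4.0.16 (R 4.3.3) with TMM scaling, a filter on low counts (minimum 10 per library, 15 in total), group and ID run as terms, and a robust quasi-likelihood test with 19 residual degrees of freedom. This left 13941 genes, and Benjamini-Hochberg adjusted p under 0.05 was called. CPM use TMM library sizes. The common biological coefficient of variation was 0.208.

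Named genes are the 12 higher and 12 lower called genes of smallest p, up to 5 in each direction of largest fold without overlap, up to 4 called genes per list (with none called, up to 2), up to 4 near each targeted locus, and up to 6 called between the GRK groups. Unnamed gene models, Xist and Y-linked genes were not named, and single genes that these rules or the lists include are not reported here. Values of further list members are given as list members. The lists and the comparison were chosen with earlier results of these data known, so no list is independent evidence. Tests on simulated counts of the 13941 genes recovered 60%, 84%, 94% and 96% of genes changed 1.5, 2, 3 and 4 fold, with 7 false among 174 calls. The simulated counts were independent between genes, with no ID run effect and no libraries that stood apart. These figures may therefore not hold for the real libraries. DESeq2 1.42.0, limma 3.58.1 on log2(FPKM + 0.1), other scalings, filters and library subsets were alternatives. The closest libraries of a group still differed beyond counting noise (chi-square per degree of freedom 5.20), so all were counted. Gene positions and exon lengths are from the annotation deposited with the counts (GRCm38), promoters from RefSeq (GRCm38.p6).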

Additional observations from a re-analysis of the deposited data

Results flagged for a closer look

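Among 220 groups of 8 libraries, taken over the genes picked by the naming rule and compared as log2 CPM, 12 had a library farther from the rest than Dixon's test allows at the 95% level. Chance flags about 1 in 20 groups. Tuba1c was at 39.4 CPM in haploinsufficient replicate 1, below the 77.2 to 131 CPM of the other 7. Fhl1 was at 107 CPM in wild-type replicate 4, below the 138 to 172 CPM of the other 7. Acan was at 7.95 CPM in wild-type replicate 1, below the 12.9 to 19.1 CPM of the other 7. Igfbpl1 was at 2.23 CPM in haploinsufficient replicate 1, below the 5.51 to 11.7 CPM of the other 7. Masp1 was at 1.76 CPM in haploinsufficient replicate 2, below the 4.99 to 9.35 CPM of the other 7. Grk4 was at 206 CPM in wild-type replicate 2, above the 21.2 to 60.4 CPM of the other 7. Scd1 was at 2.07 CPM in haploinsufficient replicate 6, below the 11.3 to 17.6 CPM of the other 7. Bves was at 92.7 CPM in wild-type replicate 7, above the 51.2 to 65.7 CPM of the other 7. Irx6 was at 0.744 CPM in haploinsufficient replicate 1, below the 2.16 to 5.27 CPM of the other 7. Bmp5 was at 12.3 CPM in haploinsufficient replicate 2, below the 19.4 to 26.9 CPM of the other 7. Unc5a was at 0 CPM in haploinsufficient replicate 2, below the 0.501 to 2.27 CPM of the other 7. Foxf1 was at 7.97 CPM in wild-type replicate 4, above the 0.221 to 1.03 CPM of the other 7. A count of 0 in haploinsufficient replicate 2 allows up to 1.71 CPM at its depth. The high Foxf1 value is in the wild-type library with the highest lung and foregut sum, and the part of that sum in it was not tested.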

How the results depend on the processing

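None of 106 called genes, those of the naming rule and the named cholesterol genes, changed direction under an alternative in which it was tested. The 106 were picked by their calls in these same libraries, so a kept direction is not independent evidence. The count of 308 genes (119 higher, 189 lower) became 18 (13 and 5) in IDs 1 to 12 alone and 187 (81 and 106) in IDs 19 to 30 alone, both with 4 hearts against 4, and 124 (59 and 65) without the 4 libraries of high lung and foregut sums, an alternative chosen after seeing the data. DESeq2 called 560 (244 and 316), including all 308. Limma on FPKM called 68 higher with a pseudocount of 0.1, 69 with 1 and 47 without a filter. Leaving out single libraries gave 166 to 593 called genes, 61 to 253 higher and 101 to 340 lower. Other scalings, no filter, no ID run term and a fit of only the 16 libraries gave 256 to 313. A test that was not robust to outlying genes called 312, with 297 shared. Between triple knockout and haploinsufficient hearts, 1 gene was called from the 15 libraries alone (0 higher, 1 lower) and 270 by DESeq2 (83 and 187). The cause was not tested for any of these.

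Replicate numbers did not pair the libraries. Correlations of same-numbered deviations from the group means ran from -0.32 to 0.22, and the fit with the replicate number as a block called 89 genes (30 higher, 59 lower), 85 of them among the 308.

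Of these 106, 8 were called under every alternative in which they were tested, 67 with the lung and foregut sum as a term and 43 without the libraries of high sums. Haploinsufficient replicate 2, with 1757257 reads, limits what low genes can show.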
